A study of Mus musculus with 14 samples.

Results

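Cytosolic ribosomal protein genes were followed during reprogramming of mouse fibroblasts toward pluripotency, with and without Cdk9-DN. The members were all genes whose symbol begins with Rpl, Rps or Rplp and a number, without the copies named -ps and without the Rps6k kinase genes. The rule uses names and no measured value. It found 36 genes among the 26962 genes listed in any library. There were 16 large subunit genes, 13 small subunit genes, 1 gene of the P stalk (Rplp1), 5 genes for paralogs of a core protein (Rpl3l, Rpl7l1, Rpl10l, Rpl36al and Rpl39l) and Rps19bp1. Rps19bp1 encodes a protein that binds Rps19 and is not itself part of the ribosome, so it matches by name alone. Below, subunit genes means the large subunit, small subunit and P stalk genes.

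The study used embryonic fibroblasts of strain OG2/129SV. The factors Oct4, Sox2, Klf4 and c-Myc were given to every culture, controls included, and a further vector was the control vector or Cdk9-DN, whose name stands for dominant-negative Cdk9. The cells grew in embryonic stem cell medium with serum and LIF, and RNA was taken 3, 4, 5 and 10 days after infection. Control and Cdk9-DN each had 1 library at day 3 and 2 libraries at days 4, 5 and 10, 14 in all. Whether replicates came from separate cultures is not stated in the labels. The p-values therefore measure the spread between these libraries, which may be technical. The labels name no promoter for either vector and no sorting, so each library is the RNA of a mixed culture.

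A ribosome has a small subunit that reads the message and a large subunit that joins amino acids, and each is built from ribosomal RNA and a set of proteins that cells need in near-equal amounts. The stalk formed by the P proteins binds the factors that drive elongation. Many messages for ribosomal proteins begin with a C followed by a run of pyrimidines, the 5′ terminal oligopyrimidine tract, through which mTOR signalling controls their translation. Cdk9, as part of P-TEFb, lets RNA polymerase II leave its pause near the start of a gene.

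The sequences at the start sites of 8 members whose values are given below are printed. They show where a run of at least 7 pyrimidines beginning with C lies near the start (Rpl38, Rpl28 and Rpl39l) and where none was found inside the window. Each sequence is 30 bases of the transcribed strand, 15 before the RefSeq start and 15 from it on (GRCm38.p6). The capitals mark the longest run that begins with C and goes on with only C or T. The windows lie at chr11:114668565-114668594 (plus strand) for Rpl38, chr7:4792950-4792979 (plus) for Rpl28, chr17:33824548-33824577 (minus) for Rps28, chr7:116334176-116334205 (minus) for Rps13, chr9:44407699-44407728 (plus) for Rps25, chr17:46782642-46782671 (minus) for Rpl7l1, chr16:10170213-10170242 (plus) for Rpl39l and chr15:80264292-80264321 (minus) for Rps19bp1.
Rpl38: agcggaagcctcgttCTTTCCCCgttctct
Rpl28: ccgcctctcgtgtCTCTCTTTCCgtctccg
Rps28: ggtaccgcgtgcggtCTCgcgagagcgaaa
Rps13: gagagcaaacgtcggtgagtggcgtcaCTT
Rps25: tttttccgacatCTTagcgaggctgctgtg
Rpl7l1: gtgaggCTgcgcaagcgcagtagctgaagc
Rpl39l: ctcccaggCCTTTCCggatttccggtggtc
Rps19bp1: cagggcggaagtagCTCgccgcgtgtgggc
In Rpl38 the run of 8 bases began exactly at the annotated start. In Rpl28 it spanned 10 bases across the start. Of the 25 members with a RefSeq start, 10 (40%) held such a run of at least 7 bases anywhere in the window, searched on the transcribed strand. Counted by start it was 10 of 26 (38.5%), and not every such run touched the start. Over all 32851 starts in the table the share was 14.2%, and over 75 starts of mitochondrial ribosomal protein genes it was 14.7%. Rpl39l held a run of 7 bases that ended before the annotated start. Inside the window the longest run was 3 bases or fewer in Rps28, Rps13, Rps25, Rpl7l1 and Rps19bp1. That of Rps13 ended on the last base of the window, so its full length is not known. The Rps25 window opens within a stretch of pyrimidines, and whether a C precedes it was not searched. A match here is letters in a window around an annotated start, and the start used in these cells was not measured.

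Most ribosomal protein genes were listed in only some libraries, and this sets what could be compared. The later GENCODE M21 annotation holds 85 protein-coding genes that match the rule, of which 37 had their identifier listed in at least 1 library and 48 in none. The unlisted genes are not analysed here. A gene missing from a library's table was taken as having no value there, never as 0. Among annotated genes with 1 to 3 exons 7 of 7 were listed, against 18 of 39 (46.2%) with 4 to 5 exons and 12 of 39 (30.8%) with 6 or more. Each library listed 12 to 22 of the members, with a median of 16. Only Rpl38 and Rpl10l were listed in all 14 libraries, 17 members were listed in 1 to 4, and 5 in exactly 1. These 5 were Rpl27, Rpl37, Rpl39, Rps12 and Rps3a. In all, 27 members reached 1 FPKM in 2 or more of the 12 libraries taken from day 4 on and so passed the filter: 11 large subunit and 11 small subunit genes, Rplp1, 3 paralogs and Rps19bp1.

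**Figure D1:**
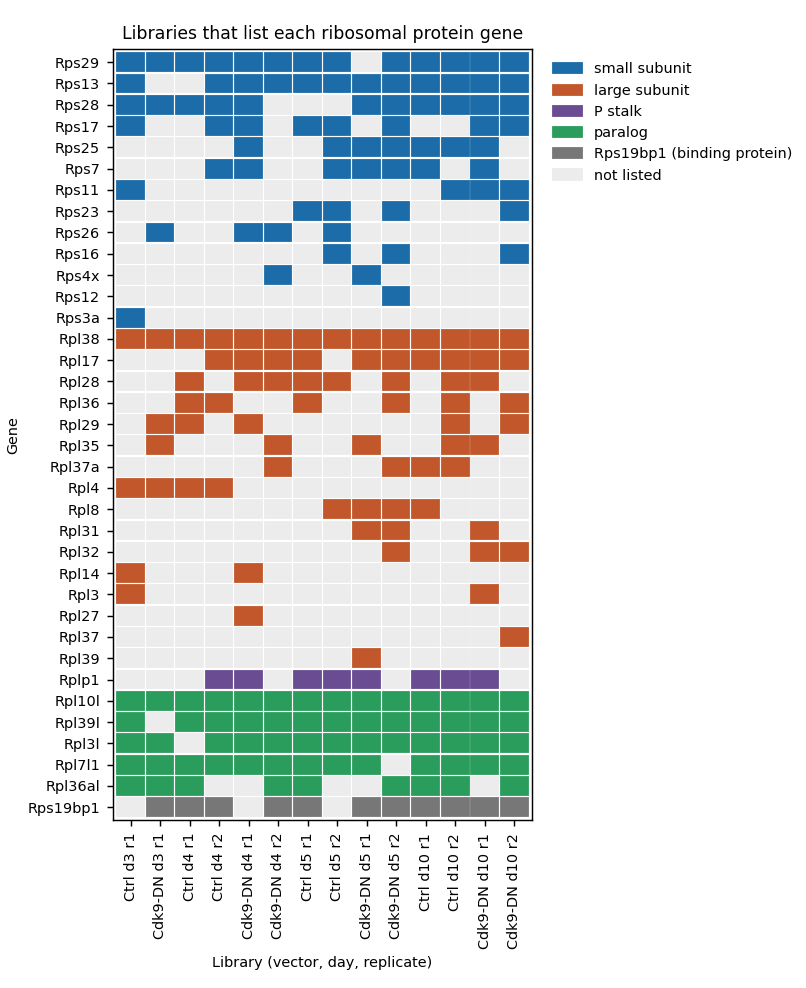
Libraries (horizontal axis, by vector, day and replicate) that list each of the 36 genes (vertical axis, coloured by role, grey where not listed). The Rpl38 row is filled in all 14 libraries, while 17 genes are filled in 4 or fewer.

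Libraries were alike in size, as far as the deposited bounds show, with 8.79 to 12.96 M implied fragments, and 4947 to 5292 genes reached 1 FPKM. In each library the top 10 genes held 33.4% to 76.1% of its summed FPKM, the highest share being in control replicate 2 of day 5. No replicate pair shared an identical value above 0. Among genes with over 100 implied fragments, 9.75% to 23.99% of values differed between replicates beyond the 95% range of counting error, where 5% would do so from counting alone. The widest pair was that of control day 10. Its members stood apart in the same way: replicate 1 was higher in 10 of 12 members listed in both libraries, by a median of 0.18 on the log2 scale. Cdk9-DN day 10 had replicate 1 higher in 3 of 11, with a median of -0.01. Results that rest on the control libraries of day 10 are therefore given without each of them where a call changes.

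The members fell into 3 ranges of level. Values are FPKM, which scale fragments by transcript length, so the order between genes rests on that scaling. In control replicate 2 of day 4, Rps28 had 3403 FPKM on 2361 implied fragments, and Rpl17 had 612 FPKM on 4771. In 31 members the median over the listed libraries was above 100 FPKM, from 478 to 5790. Rplp1 had the highest median, followed by Rps28 and Rpl32, and Rpl31, Rpl36al and Rpl29 had the lowest of this range. These medians come from different libraries for each gene, and the order within a group can differ: in Cdk9-DN replicate 1 of day 10 Rpl31 had 673 FPKM, and in replicate 2 Rpl29 and Rpl36al had 513 and 508 FPKM. Rpl36al, the paralog of Rpl36a, was thus expressed like a subunit gene, at 428 to 573 FPKM in the 9 libraries that list it. Rpl7l1, Rps19bp1 and Rpl39l formed a second range, of 5.58 to 62.3 FPKM. Rpl10l and Rpl3l, known from the male germ line and from muscle, were at or near 0, with at most 0.128 and 0.12 FPKM. Values above 100 FPKM rested on 914 to 24702 implied fragments, and their bounds reached 1.27% to 6.61% of the value to either side. For the second range this distance was 5.98% to 38.3%. These bounds cover counting error only.

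**Figure D2:**
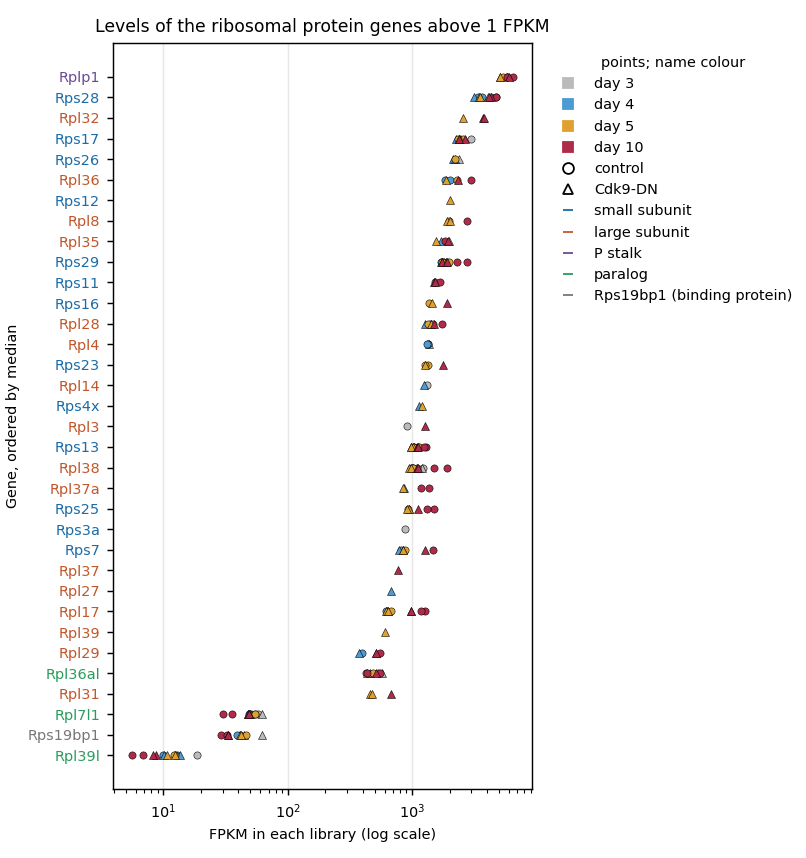
FPKM (log scale) in every library that lists the gene, for the 34 genes with a median of at least 1 FPKM, ordered by median. Points are libraries (circles control, triangles Cdk9-DN, colour by day) and name colour gives the role. The day 10 control points of Rpl17, Rpl38 and Rps29 lie to the right of the earlier days, and those of Rpl7l1 and Rpl39l to the left.

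In control cells 5 of the 7 subunit genes tested were called higher at day 10 than at day 4 and 0 lower, whereas both low-level paralogs tested were called lower. After quantile normalization 1 subunit gene was called higher. This comparison asks what changed while the factors reprogrammed the cells without Cdk9-DN. Of 10 members tested, 5 rose (Rpl17, Rpl38, Rps29, Rps28 and Rps13) and 3 fell (Rpl39l, Rpl7l1 and Rps19bp1). Rpl28 and Rplp1 did not pass. Differences are on the scale of log2(FPKM + 1), and a gene was called when limma's p-value, two-sided and adjusted by Benjamini and Hochberg over all genes tested, was under 0.05. By this rule 50.0% of all 5814 genes tested were called, 28.2% higher and 21.8% lower, so 8 calls among 10 members stand against a high background. In these bulk samples fewer cells of a type and less RNA per cell cannot be told apart.

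Rpl38, a large subunit protein known for its part in translating Hox messages in the embryo (chr11:114529838-114533645, mm9), showed the change in most detail because every library lists it. The control libraries held 1023 and 984 FPKM of it on day 4, then 1087 and 1023 FPKM on day 5, and on day 10 they held 1896 and 1511 FPKM. On day 3 the only control library had 1214 FPKM. Both day 10 libraries were above every earlier library. The difference between days 10 and 4 was 0.75 (SE 0.102, 95% interval 0.52 to 0.99, adjusted p = 0.000728).

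Rpl17, a large subunit protein that lines the tunnel of the growing peptide, had the largest difference among the members tested. It stood at 612 FPKM in the 1 control library of day 4 that lists it and 673 FPKM in the 1 of day 5. At day 10 it stood at 1277 and 1185 FPKM. The difference was 1.01 (SE 0.0703, 95% interval 0.83 to 1.19, adjusted p = 0.000199), so the day 10 mean was 2.01 times the day 4 value. Where a group has 1 listed library, as here at day 4, the fit takes its spread from the other groups.

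All 3 small subunit genes tested were called higher. Rps29, a zinc-binding protein of the small subunit, stood at 1721 and 1786 FPKM on day 4 and at 2770 and 2294 FPKM on day 10 (0.52, SE 0.122, limma adjusted p = 0.0128). Rps28, which lies near the exit of the message channel, stood at 3625 and 3403 FPKM on day 4 and 4765 and 4741 FPKM on day 10 (0.44, SE 0.0807, limma adjusted p = 0.00772). Neither gene's day 10 values overlapped those of day 4. Here and elsewhere, such a gap between groups restates values used in the test. Its share over all genes was not counted. Rps13 stood at 1029 FPKM in 1 library of day 4 and at 1295 and 1247 FPKM on day 10 (0.31, SE 0.086, limma adjusted p = 0.0263). The call of Rps13 ended without control day 10 replicate 1 (adjusted p = 0.0811). That of Rps29 ended without the same library (0.0552) or without control day 4 replicate 1 (0.0612).

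Members that did not pass lay on the same side of 0. Rpl28 had 1390 FPKM in 1 library of day 4 and 1742 FPKM in 1 library of day 10, a difference of 0.33 with a 95% interval of -0.13 to 0.79 (limma adjusted p = 0.176). Rplp1, an acidic stalk protein, stood at 5757 FPKM in 1 library of day 4 and at 6464 and 5833 FPKM on day 10 (0.09, 95% interval -0.41 to 0.60, limma adjusted p = 0.694). Another 3 subunit genes had values on both days but too few libraries to be tested. Rps7 had 814 FPKM in 1 library and 1473 FPKM in 1 library, Rpl36 had 1846 and 2029 FPKM against 2962 FPKM in 1 library, and Rpl29 had 395 FPKM against 551 FPKM, 1 library each. Counting these, 10 of 10 subunit genes had a higher mean at day 10, where 52.5% of all genes past the filter did.

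How far the rise reached depended on how the libraries were scaled. Scaling by median ratios moved the median of all genes by -0.08 and quantile normalization moved it by -0.14. Of the 7 subunit genes tested, 7 lay above 0 on the deposited values, 6 after median-of-ratios scaling and 4 after quantile normalization, with 5, 4 and 1 called higher. Over all 10 members tested, the calls split 5 higher and 3 lower on the deposited values and 1 higher and 3 lower after quantile normalization. For all genes the split went from 1639 higher and 1268 lower to 1204 higher and 1606 lower. Rpl17 passed under each (1.01, 0.87 and 0.51). Rpl38 passed on the deposited values and after median ratios (0.75 and 0.62), but not after quantile normalization (0.32, adjusted p = 0.0729). Relative to the median of all genes, the members' median was 0.25, 0.20 and 0.03 in that order.

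The 3 members that fell in control cells all belong to the low range, and their calls held under both scalings. Rpl7l1, the paralog of Rpl7 (chr17:46910856-46919605, mm9), was measured at 50.4 and 48.9 FPKM on day 4, then at 54.7 and 54.5 FPKM on day 5, and on day 10 at 35.7 and 29.9 FPKM. The difference between days 10 and 4 was -0.59 (SE 0.0797, adjusted p = 0.00132). Rpl39l, the paralog of Rpl39 (chr16:10170319-10175004, mm9), stood at 12.9 and 9.88 FPKM on day 4 and at 5.58 and 6.81 FPKM on day 10 (-0.78, SE 0.17, limma adjusted p = 0.00703). Both day 10 values of each gene were below all values of days 4 and 5. Rps19bp1 stood at 41.1 and 39 FPKM on day 4 and at 28.9 and 32.3 FPKM on day 10 (-0.38, SE 0.0633, limma adjusted p = 0.00535). Rpl36al, the paralog in the high range, had 428 FPKM in 1 library of day 4 and 551 and 435 FPKM on day 10, and was not tested here.

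Between days 5 and 4 no member of control cells was called. Of 10 members tested with limma, 0 had an adjusted p under 0.05 and 0 an unadjusted p under 0.05, against 5.02% of all genes called. Their median difference was 0.08, beside 0.03 for all genes.

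In Cdk9-DN cells fewer members passed between days 4 and 10. Of 12 members tested, 2 rose (Rpl17 and Rps28), 1 fell (Rps19bp1) and 9 did not pass, where 38.0% of all genes were called, 24.5% higher and 13.5% lower. Rpl17 stood at 625 and 644 FPKM on day 4 and at 985.9 and 986.6 FPKM on day 10 (0.64, SE 0.0574, limma adjusted p = 0.000864). Rps28 stood at 3171 FPKM in 1 library of day 4 and at 4328 and 4171 FPKM on day 10 (0.42, SE 0.0988, limma adjusted p = 0.0240). Rps19bp1 stood at 44.1 FPKM in 1 library of day 4 and at 32.8 and 32.9 FPKM on day 10 (-0.41, SE 0.0776, limma adjusted p = 0.0113). The call of Rps28 ended without Cdk9-DN day 10 replicate 1 (adjusted p = 0.106) or replicate 2 (0.0756), and after median-of-ratios scaling (0.111) or quantile normalization (0.994), and that of Rpl17 after quantile normalization (0.244).

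Rpl38 and Rpl7l1 did not pass in Cdk9-DN cells. Rpl38 reached 990 and 1022 FPKM on day 4, then 939 and 984 FPKM on day 5, and on day 10 it reached 1089 and 1114 FPKM, a difference between days 10 and 4 of 0.13 with a 95% interval of -0.11 to 0.37. Rpl7l1 stood at 50 and 47.9 FPKM on day 4 and at 47.9 and 49.2 FPKM on day 10 (-0.01, 95% interval -0.21 to 0.18). Rps29 stood at 1712 and 1881 FPKM on day 4 and at 1724 and 1907 FPKM on day 10 (0.01, 95% interval -0.28 to 0.31). All 9 subunit genes tested lay above 0 on the deposited values, but only 5 of 9 did so after median-of-ratios scaling or after quantile normalization. Those scalings moved the median of all genes by -0.12 and -0.14. With them the calls of all genes went from 1423 higher and 785 lower to 1043 and 1121, and to 898 and 1087. The members' calls went from 2 higher and 1 lower to 1 and 2, and to 0 and 1.

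**Figure D3:**
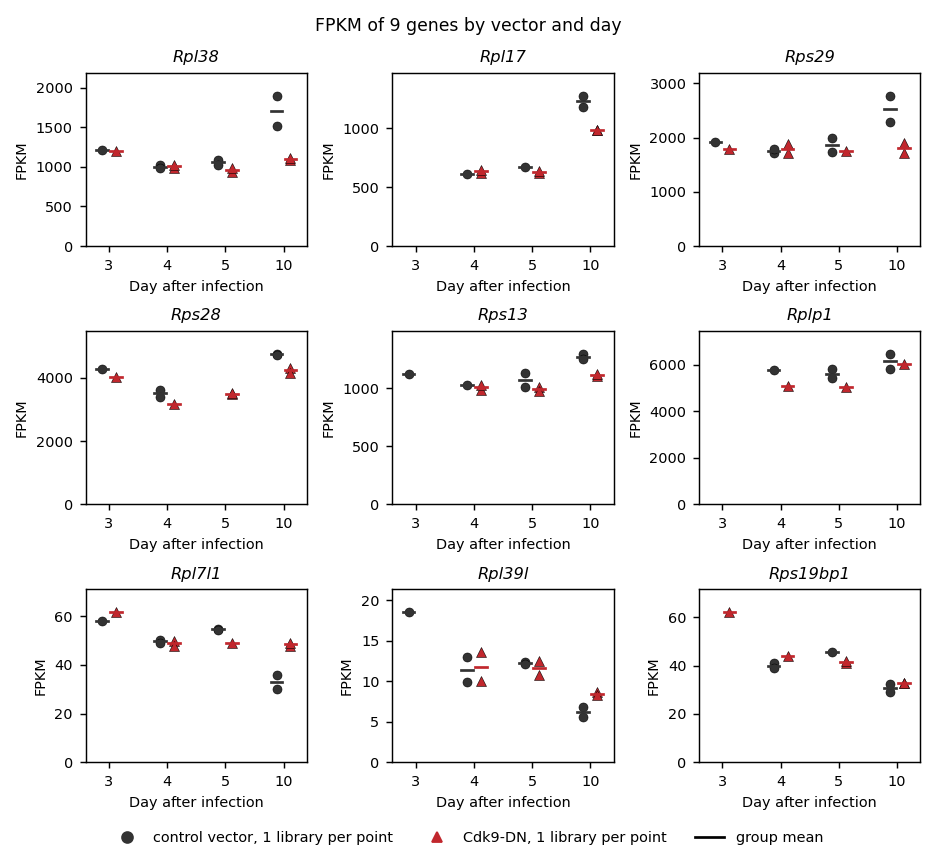
FPKM (linear axis from 0) by day after infection for 9 genes, 1 point per library that lists the gene (black circles control, red triangles Cdk9-DN) with a bar at each group mean. At day 10 both Cdk9-DN points lie below both control points in Rpl38, Rpl17 and Rps29, called lower, and in Rps28 and Rps13, not called. They lie above them in Rpl7l1, called higher, and in Rpl39l and Rps19bp1, not called. The share of all genes whose points separate in this way was not counted.

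At day 10, 3 of the 8 subunit genes tested were called lower with Cdk9-DN than with the control vector, 0 were called higher and 5 did not pass, while the paralog Rpl7l1 was called higher. After quantile normalization 1 subunit gene was called lower. This comparison asks what Cdk9-DN did to the reprogramming cells. It shares its control libraries with the change in control cells above. Of 11 members tested, 3 were called lower (Rpl38, Rps29 and Rpl17), 1 higher (Rpl7l1) and 7 did not pass. The background was 28.9% of 5740 genes called, 14.5% higher and 14.4% lower, so 4 of 11 is close to the share over all genes. The members' median was -0.19, beside 0 over all genes.

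Rpl38 stood at 1896 and 1511 FPKM with the control vector and at 1089 and 1114 FPKM in Cdk9-DN cells of day 10 (-0.62, SE 0.102, 95% interval -0.86 to -0.38, limma adjusted p = 0.00479). The groups did not overlap, and the Cdk9-DN mean was 0.647 times the control mean. The call held under both scalings and without each library of day 10 in turn, with differences of -0.78 to -0.46. Without the higher control library, replicate 1, the difference was -0.46 (adjusted p = 0.00676). Fitted on the 4 libraries of day 10 alone, neither this gene (adjusted p = 0.115) nor any other member passed. In that fit 357 of all 4387 genes tested were called.

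Rpl17 stood at 1277 and 1185 FPKM with the control vector and at 985.9 and 986.6 FPKM in Cdk9-DN cells (-0.32, SE 0.0574, limma adjusted p = 0.0147). Rps29 stood at 2770 and 2294 FPKM with the control vector and at 1724 and 1907 FPKM in Cdk9-DN cells (-0.48, SE 0.122, limma adjusted p = 0.0323). In neither gene did the groups overlap. The call of Rpl17 ended without either Cdk9-DN library of day 10 (adjusted p = 0.0672 and 0.0634) and after quantile normalization (0.176). That of Rps29 ended without control replicate 1 (0.124), Cdk9-DN replicate 1 (0.146) or Cdk9-DN replicate 2 (0.0698), and after quantile normalization its difference was 0.06.

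The other subunit genes tested lay below 0 without passing. Rps13 stood at 1295 and 1247 FPKM with the control vector and at 1103 and 1119 FPKM in Cdk9-DN cells (-0.19, 95% interval -0.36 to -0.02, limma adjusted p = 0.0890). Rps28 stood at 4765 and 4741 FPKM with the control vector and at 4328 and 4171 FPKM in Cdk9-DN cells (-0.16, 95% interval -0.37 to 0.04, limma adjusted p = 0.210). Rps25, known for its role in initiation at viral internal entry sites, stood at 1506 and 1308 FPKM with the control vector and at 1124 FPKM in 1 Cdk9-DN library (-0.32, 95% interval -0.71 to 0.06, limma adjusted p = 0.174). Rpl28 gave -0.21 and Rplp1 gave -0.03. The 8 subunit genes tested all lay below 0 on the deposited values and after median-of-ratios scaling, and 6 of 8 did after quantile normalization. With the 5 that had values in both groups but too few libraries for a test, 12 of 13 had a lower mean with Cdk9-DN. Of all genes past the filter 50.2% had a higher mean with Cdk9-DN. The exception was Rpl35, which had 1844 FPKM in 1 control library, against 1952 FPKM in 1 library with Cdk9-DN.

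The paralogs Rpl7l1 and Rpl39l lay above 0, also under both scalings. Rpl7l1 stood at 35.7 and 29.9 FPKM with the control vector and at 47.9 and 49.2 FPKM in Cdk9-DN cells of day 10 (0.55, SE 0.0797, 95% interval 0.36 to 0.75, limma adjusted p = 0.00428). The groups did not overlap, and the call held under both scalings and without each library of day 10 in turn, but not when day 10 was fitted alone (adjusted p = 0.0881). Rpl39l stood at 5.58 and 6.81 FPKM with the control vector and at 8.64 and 8.24 FPKM in Cdk9-DN cells, without passing (0.40, 95% interval 0.00 to 0.80, limma adjusted p = 0.127). Rps19bp1 gave 0.10 (limma adjusted p = 0.309).

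**Figure D4:**
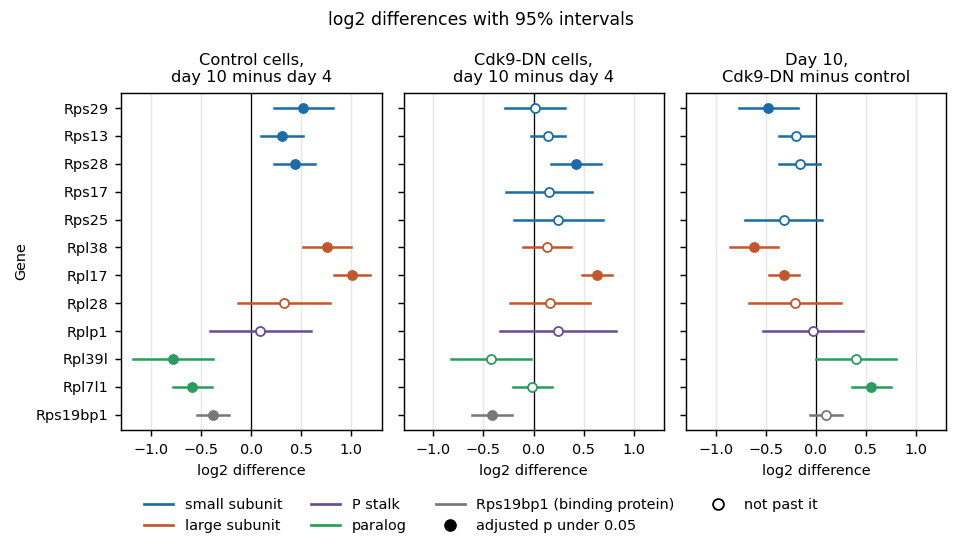
log2 differences (horizontal axis) with 95% intervals for each member tested (vertical axis, coloured by role) in control cells between days 10 and 4, in Cdk9-DN cells between the same days, and between vectors at day 10. Filled points have an adjusted p under 0.05. On these deposited values the subunit genes tested lie to the right in the first panel and to the left in the third, and Rpl7l1 and Rpl39l do the opposite.

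At the earlier days no member differed between vectors by this test. With limma 0 of 11 members were called at day 4 and 0 of 11 at day 5, where 0.0336% and 0.169% of all genes were called. An unadjusted p under 0.05 was likewise found for 0 and 0 members. Differences ran from -0.18 to 0.14 at day 4 and from -0.15 to 0.02 at day 5. At day 3, with 1 library per vector and no test, 4 subunit genes had a value in both: Rpl38 (1214 FPKM in control, 1197 FPKM with Cdk9-DN), Rps29 (1924 and 1796 FPKM), Rps28 (4297 and 4041 FPKM) and Rpl4 (1339 and 1377 FPKM).

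Averaged over days 4, 5 and 10, 1 of 9 members was called, Rpl38 (-0.25, SE 0.0587, limma adjusted p = 0.0402), where 10.9% of all genes were called. Whether the effect of Cdk9-DN differed between days 10 and 4 was tested directly, and 15.7% of all genes passed. Of 10 members tested 2 passed, Rpl38 (-0.62, SE 0.144, limma adjusted p = 0.0282) and Rpl7l1 (0.57, SE 0.113, limma adjusted p = 0.0213). For Rpl17 the difference was -0.37 (limma adjusted p = 0.0541) and for Rps29 it was -0.51 (0.104), with neither passing. The calls of Rpl38 and Rpl7l1 were lost without either library of control day 4, Cdk9-DN day 4 or Cdk9-DN day 10, with adjusted p of 0.0546 to 0.0836, and held without either control library of day 10. After quantile normalization the call of Rpl38 was lost as well (adjusted p = 0.0552), and after median-of-ratios scaling Rpl17 was called (-0.41, adjusted p = 0.0231). The averaged call of Rpl38 held without either control library of day 10 and was lost on leaving out any 1 of the other 10 libraries (adjusted p = 0.0661 to 0.0995).

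The RNA of cell type markers also differed between days and vectors, while the share of each cell type was not measured. The summed FPKM of the simple epithelium markers listed in all libraries (Cldn3, Cldn4 and Krt18, 3 of 8 markers) was 2.43 to 2.95 at day 4, 262 to 271 in control and 58.5 to 65.2 in Cdk9-DN cells of day 10. For 5 of 8 pluripotency markers (Dppa4, Dppa5a, Tdgf1, Utf1 and Zfp42) it was 0.0351 to 0.362 at day 4, 45.8 to 53.6 in control and 19.7 to 20.4 in Cdk9-DN cells of day 10. For the fibroblast markers Dcn and Lum (2 of 10) it was 15.7 to 17.1 at day 4, 3.85 to 4.42 in control and 13.3 to 15 in Cdk9-DN cells. Keratinocyte and trophoblast markers Krt4 and Sfn (2 of 4) summed to 6.05 to 7.42 at day 4. At day 10 they summed to 69.8 to 76.5 in control and 36.6 to 38.2 in Cdk9-DN cells. Lyz2, the 1 blood marker of 4 listed throughout, was 1.84 to 2.59 FPKM at day 4. At day 10 it was 0 in Cdk9-DN cells and at most 0.133 FPKM in control. The part of the cell mix in the members' differences was not tested.

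Copies named as ribosomal protein pseudogenes gave a wider view, with the limit that their reads can come from the parent genes. Of 149 such entries 112 were tested in control cells between days 10 and 4, where 95 were called higher, 0 lower, and 17 did not pass, with a median of 0.62. After median-of-ratios scaling 91 were higher and 0 lower, and after quantile normalization 70 higher and 2 lower. In Cdk9-DN cells 79 of 113 were higher and 0 lower, with a median of 0.38. After median-of-ratios scaling 49 were higher and 0 lower, and after quantile normalization 42 were higher and 1 lower, with medians of 0.21 and 0.17. Between vectors at day 10, 47 of 112 were lower with Cdk9-DN and 0 higher, with a median of -0.23, and after quantile normalization 17 were lower and 0 higher. Among all genes on the deposited values, 28.2% and 24.5% were called higher in control and Cdk9-DN cells. Between vectors at day 10, 14.4% of all genes were lower with Cdk9-DN. How many reads the copies share with unlisted parent genes was not tested.

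Other lists of the ribosome and of translation are given by their own counts, with no test of a difference from the subunit genes. Over all genes, 28.2% were called higher and 21.8% lower in control cells, and 14.5% and 14.4% with Cdk9-DN at day 10. Genes for ribosome assembly and ribosomal RNA synthesis, 18 of 41 of which were listed and 11 tested, fell in control cells between days 4 and 10: 7 were lower, 1 higher and 3 did not pass, with a median of -0.72. The lowest were Rrs1, an assembly factor of the large subunit (-1.54, SE 0.0429, limma adjusted p = 4.43e-07), and Ddx21, a nucleolar RNA helicase (-1.51, SE 0.0415, limma adjusted p = 8e-06). Imp3, a small subunit processing factor, was the one called higher (0.32, SE 0.055, limma adjusted p = 0.00237) and was not called higher after quantile normalization. With Cdk9-DN at day 10, 7 of these 11 were higher than in control and 0 lower, with a median of 0.53, led by Rrs1 (1.17) and Rrp15 (0.96). After median-of-ratios scaling and after quantile normalization 8 and 8 were called lower in control cells, and 8 and 7 higher with Cdk9-DN.

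Mitochondrial ribosomal protein genes were called in both directions on the deposited values. Over all genes the shares called were 50.0% in control cells and 28.9% between vectors at day 10. Of 38 listed, 25 were tested in control cells, where 4 were higher (Mrpl45 at 0.87 and Mrpl14 at 0.40 led) and 7 lower (Mrps22 at -0.99 and Mrps2 at -0.70 led), with a median of -0.17. After median-of-ratios scaling 1 was higher and 12 lower, and after quantile normalization 1 was higher and 14 lower. With Cdk9-DN at day 10, 5 of 24 were higher, led by Mrps22 (0.94), and 3 lower, led by Mrpl45 (-0.48), and after quantile normalization 5 were higher and 1 lower. Of 19 translation factors and other genes with an oligopyrimidine start 5 were listed. Eif3h, a subunit of initiation factor 3, was called higher in control cells at day 10 (0.66, SE 0.1, limma adjusted p = 0.0157), and Eif3l was not (-0.11). Of these 2 genes, 1 was called higher and 1 lower after median-of-ratios scaling, and 0 higher and 1 lower after quantile normalization. Of 4 ribosomal proteins whose names fall outside the rule, 2 were listed and 0 could be tested.

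**Figure D5:**
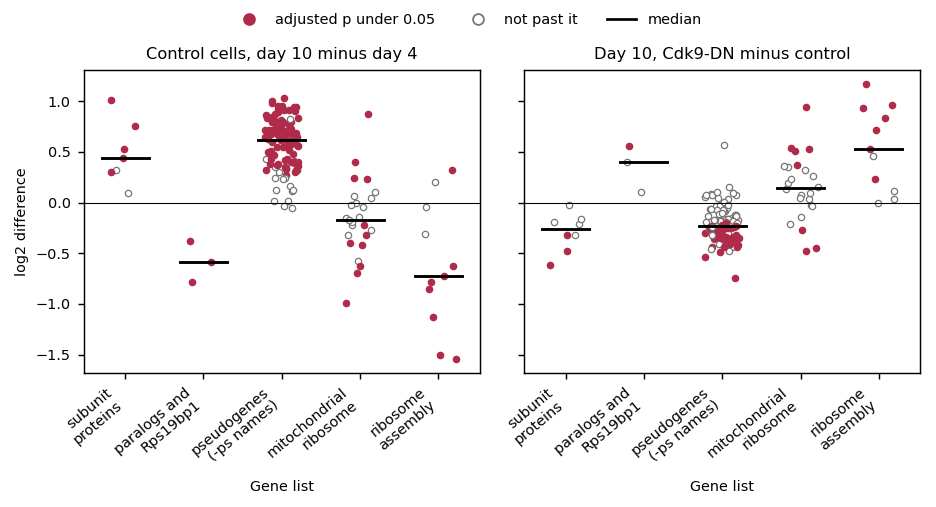
log2 differences (vertical axis) of single genes by list, in control cells between days 10 and 4 and between vectors at day 10. Filled points have an adjusted p under 0.05 and bars are medians. On these deposited values subunit genes and pseudogene copies lie mainly above 0 in the first panel and below 0 in the second, and ribosome assembly genes mainly the reverse.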

How the data were processed

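Each library had 1 deposited table of FPKM per gene with a lower and an upper bound, as the authors made it. CASAVA 1.8.2, TopHat2 2.0.10 and Cufflinks 2.2.1 were used with builds mm9 and NCBIM37, per the submitters' processing notes. Further settings are not given in the sources used here, and read counts were not used. Coordinates of genes are those of the deposited tables. GENCODE M21 gave gene types and exon numbers, and RefSeq (GRCm38.p6) gave start windows.

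Values of 16 genes with several entries were summed, and 1 entry with a failed status was dropped. Depth came from the bounds, read as 2 standard deviations, over single-transcript genes of at least 1000 bases with 20 to 200 implied fragments. A model of 6 groups was fitted to the 12 libraries from day 4 on with limma 3.58.1 (R 4.3.3) with a variance trend on level, on the scale of log2(FPKM + 1), on genes with at least 1 FPKM in 2 libraries and at least 2 residual degrees of freedom (7460 genes past the filter, 1.15 prior degrees of freedom). The 2 libraries of day 3 were only described. Python 3.11.15 and pandas 2.3.3 handled tables.

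Named members were the 5 highest and lowest called per comparison with at least 5 FPKM, fixed paralogs, stalk and other members by role, and the 3 highest and lowest by level. Members not chosen by this rule (Rps7, Rps25, Rpl28, Rpl29, Rpl31, Rpl35, Rpl36, Rpl4, Rpl27, Rpl37, Rps12 and Rps3a) are named after their values were seen. The members, lists and grouping by role were chosen with earlier results of these data known.

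In simulated data for the Cdk9-DN effect at day 10 (5740 genes), 50, 100 and 50 genes were changed by 0.5, 1 and 2 on the log2 scale. The fit recovered 24%, 58% and 76% of them, and 7 of 115 calls were false. In the real data 1658 of 5740 genes were called, so these rates need not hold there.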

Additional observations from a re-analysis of the deposited data

Results flagged for a closer look

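Rpl38 and Rpl7l1 had an effect of Cdk9-DN that differed between days 10 and 4 by a direct test with limma. For Rpl38 the effect at day 10 minus that at day 4 was -0.62 on the log2 scale (SE 0.144, adjusted p = 0.0282, and 0.0552 after quantile normalization), with both Cdk9-DN libraries below both control libraries at day 10 and overlapping groups at day 4. For Rpl7l1 the same difference was 0.57 (SE 0.113, adjusted p = 0.0213), with both Cdk9-DN libraries above both control libraries at day 10 and overlapping groups at day 4. Both calls were lost without either library of control day 4, Cdk9-DN day 4 or Cdk9-DN day 10. They were also lost with no filter on low values.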

How the results depend on the processing

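Counts of members called, and their median log2 differences, were recomputed under each alternative. At day 10 the Cdk9-DN effect called 4 members, against 1 with only genes listed in all 12 libraries and 2 after quantile normalization. It called 0 with a separate fit for each day, where 357 of all 4387 genes tested were called. Leaving out 1 library gave 2 to 4. The averaged effect called 1, against 0 with no filter on low values, with genes listed in all 12 libraries, after quantile normalization, with the replicate block or with the day 3 pair added, and 0 to 2 on leaving out 1 library. In control cells between days 4 and 10 the count was 8, against 2 with genes listed in all 12 libraries, 4 after quantile normalization and 6 to 8 on leaving out 1 library. The median was 0.32, against 0.20 with no filter, -0.013 with genes listed in all 12 libraries, 0.19 after median-of-ratios scaling and -0.039 after quantile normalization. Between days 4 and 5 in control cells the median was 0.08, and -0.039 after quantile normalization. In Cdk9-DN cells the count was 3, against 0 with genes listed in all 12 libraries and 1 after quantile normalization, and the median was 0.15, against -0.15, -0.029 and -0.10 with genes listed in all 12 libraries, median-of-ratios scaling and quantile normalization, and 0.017 to 0.17 on leaving out 1 library. For the day 10 minus day 4 effect the count was 2, against 0 with no filter, 1 with genes listed in all 12 libraries, 1 after quantile normalization and 0 to 3 on leaving out 1 library, and the median was -0.10, against 0.069 after quantile normalization and -0.19 to 0.00068 on leaving out 1 library. Quantile normalization reversed Rplp1 (0.46) and Rps29 (0.058) for Cdk9-DN at day 10, and Rplp1 (-0.60), Rps13 (-0.040) and Rps29 (-0.037) in control cells. Median-of-ratios scaling reversed Rplp1 in control cells (-0.047). Of 157 single-gene values under settings other than leaving out a library, 128 kept direction and call, 23 lost the call and 6 reversed. Of 102 on leaving out a library, 70 kept both and 32 lost the call. The cause was not tested, except that the setting of genes listed in all 12 libraries leaves only Rpl38 and Rpl39l past the filter.

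The replicate numbers of the labels mark no stated pairing, and deviations of same-numbered libraries correlated at 0.02, 0.07 and -0.03 at days 4, 5 and 10. With the replicate block the calls of Rps29 for Cdk9-DN at day 10 (adjusted p = 0.0567), Rps13 in control cells (0.0539) and Rpl38 for the averaged effect (0.0603) were lost.

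The planned medians per library were not run, because Rpl10l, near 0, and Rpl38 are the only members listed in all 14 libraries. The smallest called difference of a member between 2 groups was 0.31 on the log2 scale. It was that of Rps13 in control cells, with 1 listed library at day 4. With 2 listed libraries in both groups the smallest in size was -0.32 (Rpl17 for Cdk9-DN at day 10). The median residual SD was 0.0968 over the members tested.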
